A study of Mus musculus with 6 samples.

Results

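The genes examined here copy the genome: 43 genes for origin licensing, replication fork proteins, chromatin assembly on new DNA and entry into S phase. They were taken by gene symbol from a list of replication genes. The rule uses no measured value, but the list was drawn up with earlier results of these data known. All 43 were found in the deposited table of 52249 genes, and 31 of them passed the count filter that left 10687 genes for testing.

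In G1, the origin recognition complex marks start sites, and CDC6 and CDT1 load the MCM2-7 helicase ring around the DNA there, a step called licensing. In S phase CDC45 and GINS join MCM2-7 to form the active helicase, polymerase alpha-primase starts each new strand, and polymerases epsilon and delta extend it on the PCNA clamp. Transcription of many of these genes is controlled by E2F factors, and in the intestine their expression marks dividing crypt cells.

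The libraries came from mouse intestinal organoids, epithelial cultures grown from intestinal cells. All of them were labelled Apc-knockout, a genotype that by its name removes a brake on WNT signalling, and 3 of them were also labelled as overexpressing IGF2BP3, an RNA-binding protein. The 3 libraries without it are called control and the 3 with it OE-labelled. Age, strain, the way Apc was removed, and the vector, promoter and clone used for IGF2BP3 are not given in the sources used here. The labels do not say whether replicates are separate cultures, so p-values measure the spread between these libraries, which may be technical.

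The libraries held 2180116 to 2519917 counts each, and a floor of 3 counts lay between 1.18 and 1.41 CPM (counts scaled to library size). Igf2bp3 had at most 1 count in any library, so the overexpression label could not be checked on its own gene. Apc had 148 to 182 counts in every library, and counts at the 3′ end of a gene do not show whether a part elsewhere in it was deleted, so the knockout label was not checked either. Organoids with intact Apc were not analysed here. Library names form a separate series for each group, so library batch and group cannot be told apart in any result below. Mitochondrial genes took 11.6% to 12% of counts in control and 6.77% to 7.19% in OE-labelled libraries. The ribosomal RNA gene CT010467.1 took 4.25% to 4.69% in control and 1.28% to 1.99% in OE-labelled libraries. Over all genes, edgeR's biological coefficient of variation was 3.15% in control, against 17.2% in OE-labelled libraries. The part of these differences in the results below was not tested, apart from a scaling without mitochondrial genes and CT010467.1. All 8 epithelial markers checked passed the count filter. Of 16 stromal, endothelial and immune markers, 9 had no count in any library and 14 stayed under 3 counts in every library, and their summed level was 1.84 to 3.69 CPM in control and 1.27 to 2.36 CPM in OE-labelled libraries.

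The promoters of some of these genes hold letters of the E2F site, a feature that the choice of genes did not use. RefSeq windows on GRCm38.p6, from 250 bases before to 50 bases after the annotated start, were available for 34 of the 43 members (39 windows, since some genes have several). They were searched on both strands for 4 forms of the E2F site, TTTCCCGC, TTTGGCGC, TTTGCCGC and TTTCGCGC, and matches may overlap each other. At least 1 match was found in 14 of the 39 member windows (35.9%), against 2.26% of the 32851 windows of all genes. Each of the 4 forms contains CG, and the windows of all genes were not matched to the members for base composition. The part of base composition in this difference was not tested. Matches were found for 2 of the 4 members that rose (Mcm5 and Pold1) and that have a window, and for 8 of the 21 tested members that did not pass. A match of letters is a description and not a binding site. The stretches below show matches upstream of the RefSeq start in capitals for members of the licensing, helicase and primase steps, in the direction of transcription. Upstream matches of Orc1, Gins3 and Mcm7 are left out, since annotated exons overlap their stretches.
Cdc6, chr11:98907988-98908045, plus strand: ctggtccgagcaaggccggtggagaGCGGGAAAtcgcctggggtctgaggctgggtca
Mcm5, chr8:75109331-75109392, plus strand: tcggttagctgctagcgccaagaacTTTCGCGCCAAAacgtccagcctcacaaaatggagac
Mcm6, chr1:128359720-128359840, minus strand: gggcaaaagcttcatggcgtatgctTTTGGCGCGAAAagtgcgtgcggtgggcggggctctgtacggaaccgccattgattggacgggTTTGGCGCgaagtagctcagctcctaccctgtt
Pola1, chrX:93632261-93632318, minus strand: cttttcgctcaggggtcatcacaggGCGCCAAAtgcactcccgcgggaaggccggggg
The Mcm5 stretch holds 2 overlapping matches that start 153 and 149 bases before the annotated start, and the Mcm6 stretch holds an overlapping pair of the same kind at 110 and 106 bases and 1 more match at 47 bases. The matches of Cdc6 and Pola1 both start 138 bases upstream of the RefSeq start. The Cdc6 stretch lies inside the gene as GENCODE M21 places it, beginning at 98907801, so it is upstream of the RefSeq start only. These 4 genes behaved differently in the counts: of them, Mcm5 rose, Mcm6 and Pola1 did not pass the test, and Cdc6 was too low to be tested.

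The comparison asks whether replication genes differed between Apc-knockout organoids with and without the IGF2BP3 label. Of the 31 tested members, 6 rose in OE-labelled libraries: Pole, E2f1, Mcm5, Rpa1, Pold1 and Gins4. None fell (edgeR quasi-likelihood test, Benjamini-Hochberg adjusted p below 0.05), although Pola2 and Pold3 were lower at an unadjusted p below 0.05, and DESeq2 and limma-voom also called 0 lower. The 6 calls are 19.4% of the tested members. Among all tested genes 29.2% passed, 16.5% higher and 12.7% lower, so the share of members that rose was near the background. Tested members had a median mean count of 38.5 per library, against 70 for all tested genes. Their median log2 ratio of OE-labelled to control was 0.05, against 0.04 for all tested genes, with 19 members above 0 and 12 below.

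**Figure D1:**
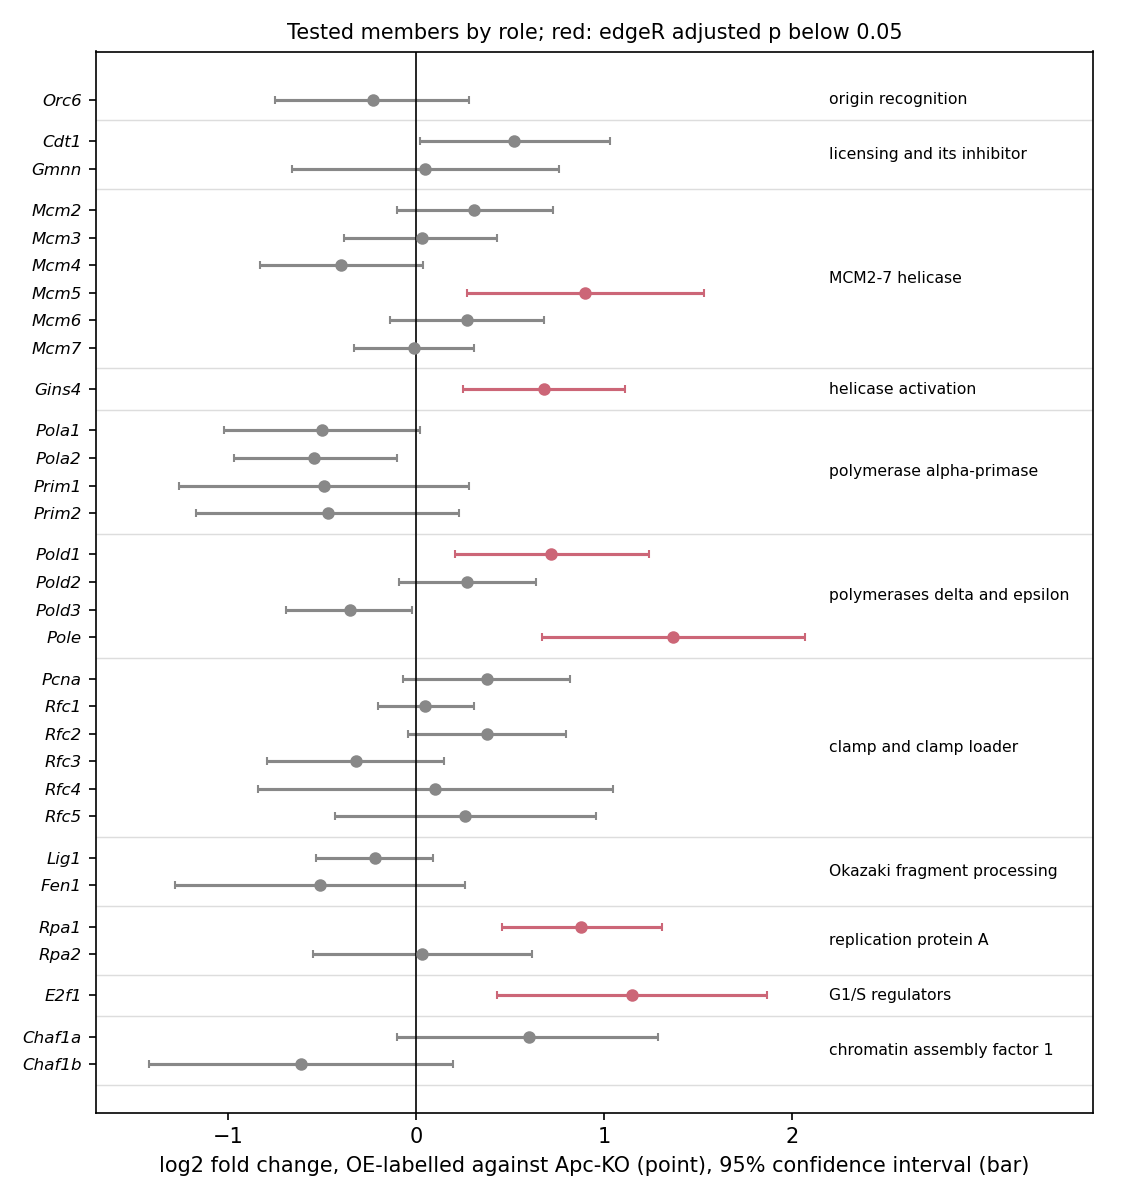
Log2 ratio of each of the 31 tested members, OE-labelled against control (points), with 95% confidence intervals (bars), grouped by role. The 6 members in red passed, and all of them lie to the right of 0. All 4 members of polymerase alpha-primase lie to the left of 0 without passing.

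How many members rose depended on single libraries and on the test. Without control replicate 1, 2 or 3 the number was 2 each time, without OE-labelled replicate 1 it was 4, without replicate 2 it was 3 and without replicate 3 it was 7. Without OE-labelled replicate 1, 3 members were called lower (Pola1, Pola2 and Lig1), and Pcna and Cdt1 joined Pole and Rpa1 among those called higher. DESeq2 called 3 members higher (Pole, Rpa1 and E2f1). The number of all genes called higher moved as well, from 1765 to between 1033 and 1097 without 1 control library and 1059 with DESeq2. Without OE-labelled replicate 1, 2 or 3 it was 1614, 1227 and 1959. Rpa1 passed in all 20 alternatives and Pole in 19, against 15 for E2f1, 12 for Gins4 and 9 each for Mcm5 and Pold1.

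An offset fitted to the GC content of transcripts in each library changed which members passed. With it, 4 members were called higher (Pole, Rpa1, Gins4 and Pcna) and 1 lower (Pola2). Over all genes the number called higher went from 1765 to 1348 with the offset. Annotated transcripts of the 6 members that rose had a GC content of 49.1% to 60.6% (median 52.2%), against 41.7% to 58.7% (median 51.1%) for the 25 that did not pass. Pold1 has the highest GC content of the tested members at 60.6%, and its log2 ratio of 0.72 became 0.47 with the offset (edgeR adjusted p = 0.165). Pcna, at 42.3%, went from 0.38 to 0.61 (edgeR adjusted p = 0.0297). The part of GC content in the other calls was not tested beyond this offset.

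**Figure D2:**
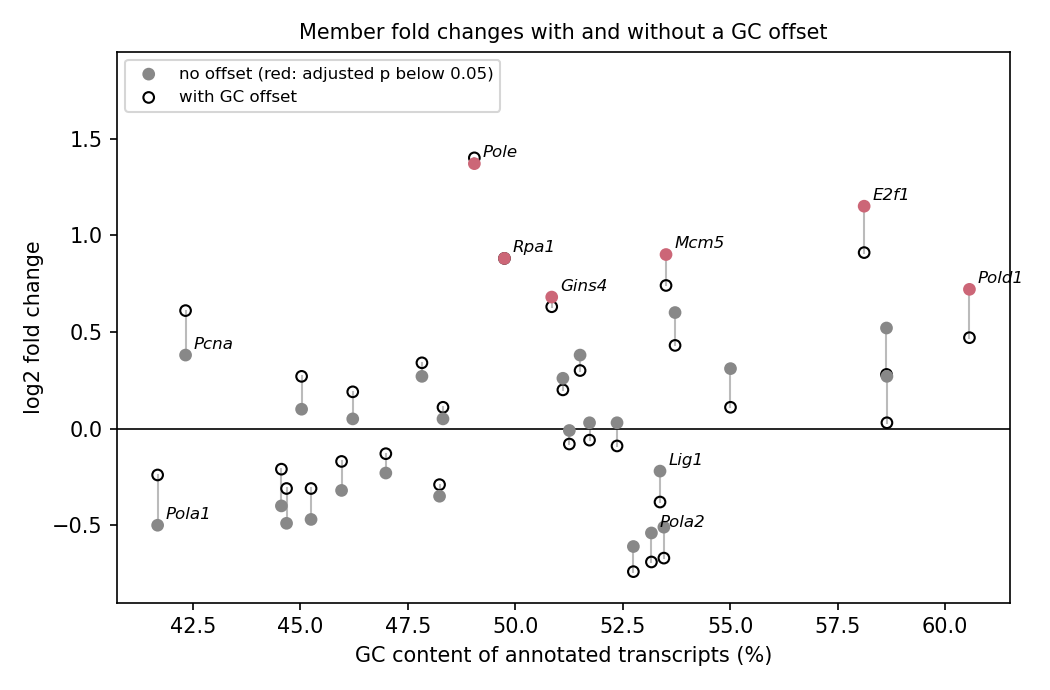
Log2 ratio of the 31 tested members against the GC content of their annotated transcripts, without an offset (filled points, red where the edgeR adjusted p is below 0.05) and with a GC offset (open circles), joined by a line for each gene. Members with GC content near 60% moved down with the offset and members near 42% moved up, whereas Pole and Rpa1, near 49% to 50%, stayed within 0.03 of their value.

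None of the tested members for origin recognition and licensing passed. Of the other subunits of the origin recognition complex, which are not members, Orc2 and Orc5 passed in opposite directions. They are described with the remaining replication genes. Orc3 (log2 ratio -0.16, edgeR adjusted p = 0.645) and Orc4 (log2 ratio -0.08, edgeR adjusted p = 0.828) did not pass. Orc1, an ATP-binding subunit of the origin recognition complex, had 0 to 2 counts in every library and could not be tested. Orc6, a second subunit, was counted at 11.1, 16.4 and 16.6 CPM in control replicates 1 to 3 and at 11.8, 11.8 and 13.9 CPM in OE-labelled replicates, with overlapping groups (log2 ratio -0.23, SE 0.24, edgeR adjusted p = 0.488). It lies opposite Vps35, and without a stated strand setting reads of the pair cannot be told apart.

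Cdc6, one of the helicase loaders, had 8, 4 and 6 counts in control against 10, 10 and 8 in OE-labelled libraries, which is below the filter. Its partner Cdt1 was counted at 12.9, 15.5 and 12 CPM in control and at 14.6, 23.2 and 20.3 CPM in OE-labelled libraries. OE-labelled replicates 2 and 3 lay above all controls, and replicate 1 lay among them. Its log2 ratio was 0.52 (SE 0.23, edgeR adjusted p = 0.11), and Cdt1 overlaps the same-strand gene model Gm20388. Gmnn encodes geminin, the inhibitor that binds CDT1 after S phase has begun. It was counted at 9.22, 7.98 and 11.1 CPM in control and 5.27, 10.6 and 13.5 CPM in OE-labelled libraries, so that its widest spread was among the OE-labelled libraries (log2 ratio 0.05, SE 0.33, edgeR adjusted p = 0.924).

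Of the 6 subunits of the MCM2-7 ring, which unwinds DNA at the fork, only Mcm5 passed. Mcm5 (ENSMUSG00000005410, plus strand of chromosome 8, 75109569 to 75128439 on GRCm38) had levels of 4.15, 7.04 and 5.99 CPM in control and 12.6, 9.44 and 10.2 CPM in OE-labelled libraries. The groups did not overlap, where 45.7% of all tested genes do not. The average rose from 5.72 ± 1.46 to 10.7 ± 1.64 CPM (SD, n = 3), a log2 ratio of 0.9 (SE 0.29, edgeR adjusted p = 0.0343). With DESeq2 the adjusted p was 0.166 and with the GC offset 0.0865 (edgeR). Leaving out any single library other than OE-labelled replicate 3 also took it past 0.05, with fold changes from 0.71 to 1.07 on the log2 scale.

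Mcm7 was counted at 79.3, 74.6 and 76.9 CPM in control and 88.3, 80.6 and 60 CPM in OE-labelled libraries. OE-labelled replicates 1 and 2 lay above all controls and replicate 3 below all of them, and the log2 ratio was -0.01 with a 95% confidence interval from -0.33 to 0.31 (edgeR adjusted p = 0.966). Mcm7 also hosts 3 annotated microRNA genes on its strand, and Cops6 and Ap4m1 overlap it on the other. Mcm4 was the only ring subunit with lower, non-overlapping OE-labelled values, 15.8, 18.5 and 20.3 CPM against 21.2, 22 and 28.6 CPM in control. Its log2 ratio of -0.4 did not pass (SE 0.2, edgeR adjusted p = 0.156). The other 3 subunits overlapped between groups: the log2 ratio was 0.31 for Mcm2 (SE 0.19, edgeR adjusted p = 0.243), 0.03 for Mcm3 (SE 0.19, edgeR adjusted p = 0.932) and 0.27 for Mcm6 (SE 0.19, edgeR adjusted p = 0.312). Summed over the 6 subunits, the level was 177 to 186 CPM in control and 177 to 203 CPM in OE-labelled libraries.

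Among the genes that turn the loaded ring into an active helicase, Gins4 was the only member with enough counts to test, and it rose. Gins4 (ENSMUSG00000031546, minus strand of chromosome 8, 23226616 to 23237659 in GRCm38) encodes a subunit of the GINS complex. It was counted at 13.8, 15.9 and 14.7 CPM in control and 26.3, 24.8 and 20.3 CPM in OE-labelled libraries. Every OE-labelled library lay above every control. The mean went from 14.8 ± 1.07 to 23.8 ± 3.14 CPM (SD, n = 3), a log2 ratio of 0.68 (SE 0.2, edgeR adjusted p = 0.0219). With DESeq2 the adjusted p was 0.115, and with an offset for exonic length 0.113 (edgeR). Leaving out any single library other than OE-labelled replicate 3 also ended the call, with edgeR adjusted p from 0.0557 to 0.084.

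The other helicase-activating genes were below the filter and were not tested. Gins1 had 2, 4 and 4 counts in control against 6, 16 and 8 in OE-labelled libraries. Gins2 had 7, 9 and 9 counts against 8, 22 and 15. In both genes OE-labelled replicate 2 was highest. Gins3, the remaining GINS subunit, had 11, 7 and 6 counts in control and 7, 2 and 7 in OE-labelled libraries. Cdc45, which binds the ring together with GINS, ran from 0 to 6 counts in control and 2 to 7 in OE-labelled libraries. Mcm10, a factor needed for helicase activation, ran from 4 to 11 and from 7 to 10 counts. Ticrr, which brings CDC45 to the licensed origin, ran from 2 to 7 and from 1 to 6 counts.

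All 4 genes of polymerase alpha-primase had negative fold changes, and none passed. Pola2, which encodes the accessory subunit, was counted at 21.2, 17.4 and 21.6 CPM in control and 14.2, 13 and 14.4 CPM in OE-labelled libraries. The groups did not overlap, and the mean was 20.1 ± 2.36 against 13.8 ± 0.757 CPM (SD, n = 3). Its log2 ratio of -0.54 (SE 0.2) narrowly missed the threshold (edgeR adjusted p = 0.0634). It was called lower in 5 of 20 alternatives, among them DESeq2 size factors, with an adjusted p of 0.0491, and the GC offset, with 0.0278 (both edgeR). The same offset brought the other 3 genes nearer to 0, to a log2 ratio of -0.24 for Pola1 and -0.31 for both Prim1 and Prim2, with edgeR adjusted p from 0.541 to 0.579.

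Pola1, the catalytic subunit, was counted at 22.1, 19.2 and 16.1 CPM in control and 17.4, 12.6 and 10.6 CPM in OE-labelled libraries. Its groups overlapped through OE-labelled replicate 1, and its log2 ratio was -0.5 (SE 0.24, edgeR adjusted p = 0.134). Without that library it was -0.78 (edgeR adjusted p = 0.0192). The primase subunits make the RNA primer. Prim1 had a log2 ratio of -0.49 (SE 0.35, edgeR adjusted p = 0.319) and Prim2, whose groups did not overlap, of -0.47 (SE 0.32, edgeR adjusted p = 0.295). Summed over the 4 genes, the level was 48.8 to 59 CPM in control and 34.2 to 42.1 CPM in OE-labelled libraries.

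The catalytic subunits of the 2 polymerases that extend new strands both rose. Pole (ENSMUSG00000007080, plus strand of chromosome 5, 110286306 to 110337474 in GRCm38) encodes that of polymerase epsilon, which copies the leading strand. It was counted at 12.4, 4.22 and 5.07 CPM in control and 19.5, 19.7 and 17.3 CPM in OE-labelled libraries. Control replicate 1 stood above the other 2 controls, but below all OE-labelled libraries. The mean rose from 7.25 ± 4.52 to 18.8 ± 1.29 CPM (SD, n = 3), a log2 ratio of 1.37 (SE 0.32, edgeR adjusted p = 0.00786). This was the highest fold change among the tested members. Without control replicate 3 the adjusted p was 0.0524 (log2 ratio 1.17, edgeR), and without control replicate 1 the log2 ratio was 2. The accessory subunit Pole2 was not tested, with 6, 4 and 8 counts in control and 3, 5 and 21 in OE-labelled libraries, where replicate 3 stood apart.

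Pold1 (ENSMUSG00000038644, minus strand of chromosome 7, 44532746 to 44548849 in GRCm38) encodes the catalytic subunit of polymerase delta, which extends the lagging strand. It was counted at 12.4, 10.8 and 13.8 CPM in control and 24.7, 21.2 and 15.2 CPM in OE-labelled libraries. The lowest OE-labelled library, replicate 3, lay just above the highest control. The mean rose from 12.3 ± 1.52 to 20.4 ± 4.8 CPM (SD, n = 3), a log2 ratio of 0.72 (SE 0.24, edgeR adjusted p = 0.0365). Besides the GC offset, DESeq2 (adjusted p = 0.134), counts thinned to equal depth (edgeR adjusted p = 0.0617) and leaving out mitochondrial genes and the ribosomal RNA gene CT010467.1 (edgeR adjusted p = 0.052) took it past 0.05. Leaving out any single library except OE-labelled replicate 3 had the same effect.

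The other polymerase delta subunits among the members did not pass. Pold3 was counted at 38.7, 37.5 and 41.9 CPM in control and 28, 30.3 and 34.2 CPM in OE-labelled libraries. Every control was above every OE-labelled library, with a log2 ratio of -0.35 that did not pass (SE 0.15, edgeR adjusted p = 0.0995). Pold2 was counted at 23.5, 22.1 and 21.2 CPM and at 27.6, 25.2 and 27.9 CPM. Its groups did not overlap either, with a log2 ratio of 0.27 (SE 0.17, edgeR adjusted p = 0.246). Pold4, the small subunit and not a member, rose from 39.6, 36.1 and 31.3 CPM to 43.8, 50.3 and 55.8 CPM (log2 ratio 0.48, SE 0.16, edgeR adjusted p = 0.0335). It passed in 8 of 20 alternatives, and with the GC offset its log2 ratio was 0.25 (edgeR adjusted p = 0.265). Pold4 overlaps 1 annotated gene on its own strand.

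**Figure D3:**
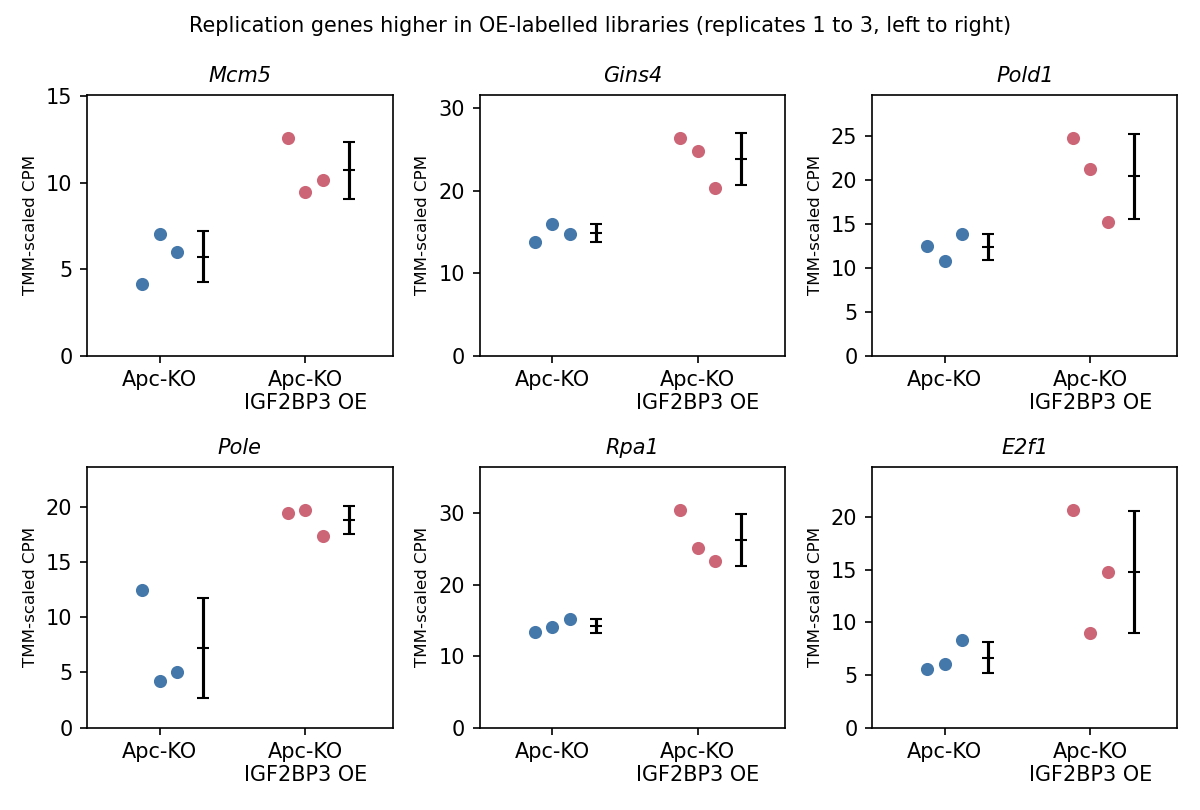
TMM-scaled CPM of the 6 members that rose, by library (points, replicates 1 to 3 from left to right), with the mean and SD of each group of 3 libraries (bars). In each panel all OE-labelled libraries lie above all controls, and the gap is narrowest for E2f1 (8.29 against 9.04 CPM) and for Pold1 (13.8 against 15.2 CPM).

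The clamp and its loader gave 6 tested members and no call. Pcna, the sliding clamp that holds polymerases on DNA, was counted at 24, 23.5 and 28.6 CPM in control and 24.7, 32.6 and 41.4 CPM in OE-labelled libraries. OE-labelled replicate 3 was highest and replicate 1 lay among the controls. The log2 ratio was 0.38 (SE 0.2, edgeR adjusted p = 0.184). Pcna has 2 annotated pseudogenes bearing its name, so its counts are uncertain.

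Rfc1, the large subunit of the clamp loader, was counted at 135, 143 and 129 CPM in control and 157, 124 and 140 CPM in OE-labelled libraries. The groups overlapped, and the 95% confidence interval of its log2 ratio of 0.05 ran from -0.2 to 0.31 (edgeR adjusted p = 0.771). Rfc2 was counted at 24, 24.9 and 30.4 CPM against 41.3, 35.4 and 26.2 CPM, with OE-labelled replicate 3 among the controls (log2 ratio 0.38, SE 0.2, edgeR adjusted p = 0.164). Without that replicate its log2 ratio was 0.54 (edgeR adjusted p = 0.0344). The log2 ratios of the remaining loader subunits were -0.32 for Rfc3 (SE 0.22), 0.1 for Rfc4 (SE 0.44) and 0.26 for Rfc5 (SE 0.32), with edgeR adjusted p from 0.29 to 0.883. Rfc4 lies opposite Eif4a2 and Rfc5 opposite Wsb2, so their counts are uncertain.

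Lig1 and Fen1 finish the lagging strand: FEN1 trims the flap left by the primer and LIG1 seals the nick. Lig1 was counted at 101, 112 and 98.6 CPM in control and 107, 87.3 and 72.7 CPM in OE-labelled libraries. OE-labelled replicates 2 and 3 lay below all controls and replicate 1 among them. The log2 ratio was -0.22 (SE 0.14, edgeR adjusted p = 0.266), and without OE-labelled replicate 1 it was -0.43 (edgeR adjusted p = 0.0121). Fen1 was counted at 7.84, 16.4 and 10.1 CPM against 4.86, 7.47 and 11.8 CPM, with a log2 ratio of -0.51 (SE 0.36, edgeR adjusted p = 0.302). Fen1 lies opposite Tmem258, which had 4020 counts in all, so its counts are uncertain.

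Replication protein A coats single-stranded DNA at the fork, and its large subunit Rpa1 rose. Rpa1 (ENSMUSG00000000751, minus strand of chromosome 11, 75298166 to 75348324 on GRCm38) had levels of 13.4, 14.1 and 15.2 CPM in control and 30.4, 25.2 and 23.3 CPM in OE-labelled libraries. The groups were well apart, and the mean went from 14.2 ± 0.927 to 26.3 ± 3.69 CPM (SD, n = 3). The log2 ratio was 0.88 (SE 0.2, edgeR adjusted p = 0.00572), and the adjusted p stayed between 0.00256 and 0.0324 over the alternatives. Rpa2 was counted at 17.1, 17.4 and 9.67 CPM in control and 19, 13 and 13.1 CPM in OE-labelled libraries (log2 ratio 0.03, SE 0.27, edgeR adjusted p = 0.937). Rpa3 was not tested, with 7, 4 and 8 counts in control and 4, 3 and 3 in OE-labelled libraries. The annotation places other genes over Rpa1, Pold1 and Pole, but none of those genes had more than 1 count over the 6 libraries.

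E2f1, a transcription factor that activates many replication genes at entry into S phase, rose with a wide spread. E2f1 (ENSMUSG00000027490, minus strand of chromosome 2, 154559407 to 154569892 on GRCm38) had levels of 5.53, 6.1 and 8.29 CPM in control and 20.7, 9.04 and 14.8 CPM in OE-labelled libraries. Replicate 1 was the highest OE-labelled library, and replicate 2 lay just above the highest control. The mean went from 6.64 ± 1.46 to 14.8 ± 5.81 CPM (SD, n = 3), a log2 ratio of 1.15 (SE 0.33, edgeR adjusted p = 0.0209). The adjusted p was 0.0466 with DESeq2 and 0.0585 with the GC offset (edgeR). Without OE-labelled replicate 1 the log2 ratio was 0.77 (edgeR adjusted p = 0.0721). Leaving out control replicate 1 (edgeR adjusted p = 0.0885) or control replicate 2 (0.0802) also ended the call.

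The cyclin E genes, whose products activate CDK2 before S phase, were below the filter. Ccne1 had 10, 5 and 5 counts in control and 12, 5 and 7 in OE-labelled libraries. Ccne2 had 9, 9 and 5 counts against 9, 5 and 4. Neither gene separated the groups.

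Chromatin assembly factor 1 deposits histones on new DNA, and its subunits had fold changes of opposite sign. Chaf1a was counted at 4.15, 4.69 and 8.29 CPM in control and 9.72, 9.04 and 7.19 CPM in OE-labelled libraries (log2 ratio 0.6, SE 0.32, edgeR adjusted p = 0.183). Chaf1b was counted at 11.1, 6.57 and 4.15 CPM against 4.86, 5.11 and 4.23 CPM (log2 ratio -0.61, SE 0.37, edgeR adjusted p = 0.241). Both overlapped between groups, and Chaf1a lies opposite Ubxn6.

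Tested members whose CPM ranges did not overlap numbered 11 (35.5%), of which 7 were higher and 4 lower, against 45.7% of all tested genes. Besides the 6 that passed they were Pold2, higher, and Mcm4, Pola2, Prim2 and Pold3, lower. The 12 untested members summed to 28.2 to 38.3 CPM in control and 28.4 to 39.7 CPM in OE-labelled libraries. When tested without a count filter none of the 12 passed (lowest edgeR adjusted p = 0.0775).

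Library by library, the members did not move as a block. The median deviation of the 31 tested members from the control mean, on the log2(CPM + 1) scale, was 0.2 in OE-labelled replicate 1, 0.17 in replicate 2 and 0.03 in replicate 3, against -0.05 to -0.01 in the control libraries. In these replicates 19, 17 and 16 of the 31 members lay above the control mean. The coefficient of variation of a member between libraries had a median of 16.5% among control and 15.3% among OE-labelled libraries, which at these low counts includes counting error. Summed over all 43 members, the level was 775 to 792 CPM in control and 794 to 884 CPM in OE-labelled libraries. In bulk libraries, fewer cells of a kind and less RNA per cell cannot be told apart.

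**Figure D4:**
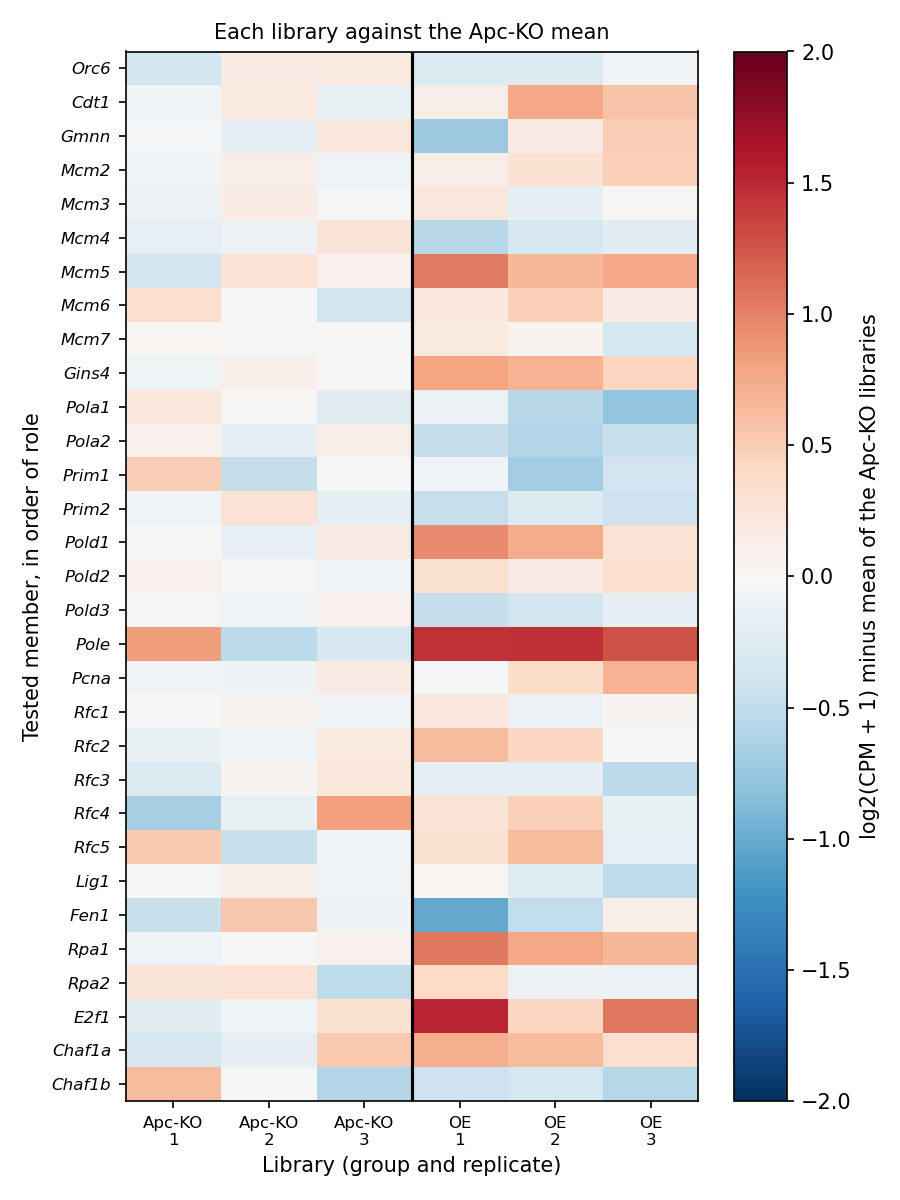
Log2(CPM + 1) of each tested member in each library, as the difference from the mean of the 3 control libraries (colour scale from -2 to 2). Pole, Rpa1, Mcm5, Gins4, Pold1 and E2f1 are above the control mean in all OE-labelled libraries, and the 4 genes from Pola1 to Prim2 are below it. Of the other members, some keep their sign over the OE-labelled libraries and others vary.

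The remaining replication machinery, taken from a list of 41 genes outside the members, changed in both directions. Of 29 tested genes, 5 rose and 6 fell (37.9%, against the background of 29.2%), with a median log2 ratio of -0.11. Poldip3, a partner of polymerase delta, rose from 94.5, 96.2 and 94.9 CPM to 154, 141 and 128 CPM (log2 ratio 0.57, SE 0.11, edgeR adjusted p = 0.00317). Rnaseh2a, the catalytic subunit of the enzyme that removes ribonucleotides from DNA, rose by 0.75 (SE 0.17, edgeR adjusted p = 0.00609). Mtbp, the partner of TICRR in origin firing, fell from 17.1, 20.2 and 19.3 CPM to 9.72, 9.83 and 9.3 CPM (log2 ratio -0.97, SE 0.21, edgeR adjusted p = 0.00532). Orc2, a core subunit of the origin recognition complex, fell by 0.69 in log2 terms (SE 0.16, adjusted p = 0.00769 by edgeR), a call lost with the GC offset (adjusted p = 0.0524, edgeR). Orc5, another subunit of that complex, rose from 15.7, 19.2 and 14.7 CPM to 26.7, 25.2 and 26.6 CPM (log2 ratio 0.66, SE 0.19, edgeR adjusted p = 0.0197), and passed in 16 of 20 alternatives. It overlaps 2 annotated genes on its own strand. With the GC offset 5 genes of the list were called higher and 2 lower, and DESeq2 called 2 higher and 3 lower. Mtbp overlaps 1 annotated gene on the opposite strand, and Rnaseh2a and Orc2 overlap 1 on each strand, so these counts are uncertain. Without any 1 control library 5 genes were called, and without OE-labelled replicate 2, 6.

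Genes that supply S phase or work with E2F mostly did not pass: of 33 tested genes of 37, 1 rose and 5 fell (18.2%, against 29.2%), with a median of -0.08. Cdkn1a, the CDK inhibitor p21, fell from 1190, 1124 and 1104 CPM to 640, 650 and 408 CPM (log2 ratio -1.01, SE 0.15, edgeR adjusted p = 0.000584). E2f3, another activating E2F factor, fell from 29.5, 21.6 and 28.6 CPM to 14.6, 13.8 and 12.7 CPM (log2 ratio -0.95, SE 0.2, edgeR adjusted p = 0.0043), the opposite direction to E2f1. Asf1a, a histone chaperone, fell by 0.9 (SE 0.18, edgeR adjusted p = 0.00344). Cdk4, the G1 kinase that phosphorylates RB, rose by 0.63 (SE 0.13, edgeR adjusted p = 0.00383). Each of these 4 genes overlaps 1 annotated gene on the opposite strand, which leaves their counts uncertain. Without OE-labelled replicate 1, 3 genes of this list were called higher and 7 lower.

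Of 16 tested mitosis genes among 25, 3 rose and 1 fell, a share of 25%, against 29.2% of all tested genes. Kif11, a motor of the mitotic spindle, fell by 1.44 in log2 terms (SE 0.35, adjusted p = 0.00956 by edgeR). Birc5 (0.88, SE 0.27, edgeR adjusted p = 0.0281), Bub1b (0.97, SE 0.3, edgeR adjusted p = 0.0301) and Cdk1 (0.45, SE 0.15, edgeR adjusted p = 0.0421), which act in chromosome segregation and entry into mitosis, rose. All 3 were lost with DESeq2, where 1 gene of the list passed. Leaving out control replicate 1 or 2 left 1 call, and leaving out control replicate 3 or OE-labelled replicate 2 left 2.

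**Figure D5:**
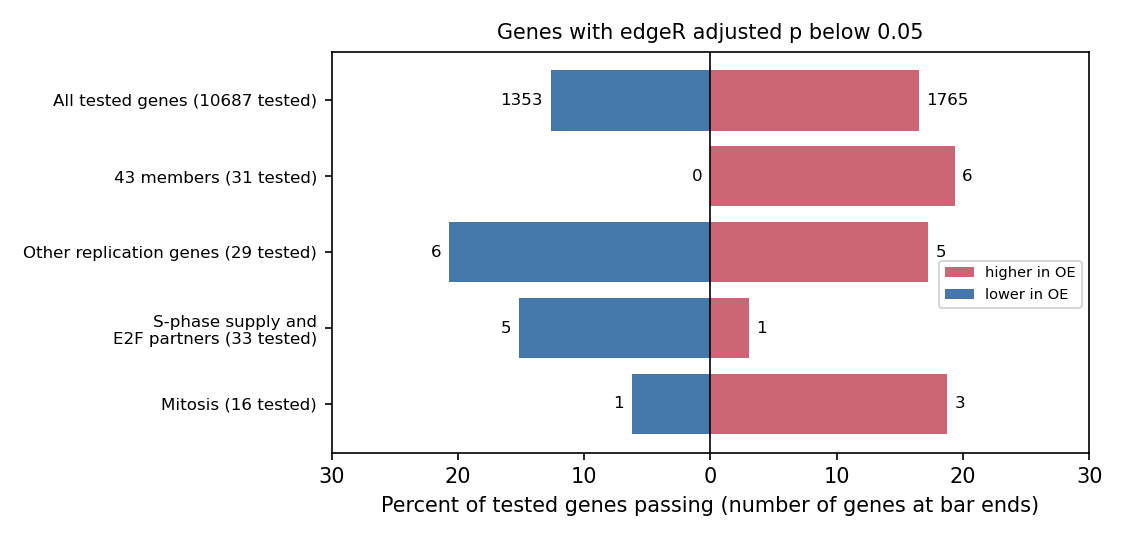
Percent of tested genes that passed (edgeR adjusted p below 0.05), higher to the right and lower to the left, with gene numbers at the bar ends. The 43 members give 6 higher and 0 lower of 31 tested, and the other replication genes 5 higher and 6 lower of 29, beside 1765 higher and 1353 lower among all 10687 tested genes.

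Some markers of differentiated and stem cells differed between the groups as well, and the shares that rose can be read against 16.5% of all tested genes. Of 16 secretory markers 7 were tested: 4 rose (Tff3, Spink4, Fcgbp and Mmp7), while Muc2, Clca1 and Dclk1 did not pass. The summed level of the 16 was 728 to 764 CPM in control and 1485 to 1697 CPM in OE-labelled libraries. Among them, 5 markers were at 0 in all libraries (Chga, Neurod1, Tac1, Defa24 and Lyz1). Spink4 alone, a goblet cell gene, went from between 469 and 494 CPM to between 1011 and 1246 CPM and makes up most of that sum. Of 8 crypt stem cell markers 7 were tested and 3 rose (Ascl2, Sox9 and Prom1), while Lgr5, Olfm4, Axin2 and Cd44 did not pass, and the summed level went from between 1973 and 2100 CPM to between 2703 and 2885 CPM, most of it from Cd44 and Prom1. Of 11 absorptive markers only Vil1 could be tested and rose, while 7 had no count in any library, and their summed level was 68.5 to 70 CPM in control and 95.6 to 117 CPM in OE-labelled libraries. All 8 epithelial markers were tested: 3 rose (Krt8, Krt18 and Krt19), 1 fell (Cldn7) and the others did not pass. Their summed level went from between 4162 and 4408 CPM to between 5384 and 6122 CPM. The part of cell composition in the results for replication genes was not tested.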

How the data were processed

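QuantSeq 3′ forward libraries were made from total RNA, per the labels' protocols. The submitters' processing notes list STAR, HTSeq and the builds mm10 and GRCm38. Annotation, strand setting and handling of multi-mapping reads are not given in the sources used here. The authors deposited unnormalized estimated counts per Ensembl gene, of which 3.1% of the values above 0 were fractional. Whole counts had been planned for, so these values were rounded here. Columns were matched to samples by the library name in the description, and groups came from the titles.

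All 10687 genes kept by filterByExpr were fitted without covariates in edgeR 4.0.16 (quasi-likelihood test, TMM scaling, R 4.3.3) and adjusted by the Benjamini-Hochberg method. Standard errors are the fold change divided by the square root of F. The test was checked on counts simulated with the same spread in both groups. That check does not cover the unequal spread of the control and OE-labelled libraries. CPM values use TMM-scaled library sizes. A 3′ count does not scale with transcript length, so no length correction was made. Alternatives used DESeq2 1.42.0, limma 3.58.1, other scalings and filters, GC and exonic length offsets (loess, span 0.5, GENCODE M21), the replicate number as a block and each library left out. Gene positions are those of GENCODE M21 (GRCm38), and promoter positions are counted from RefSeq starts.

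Members and lists were chosen with earlier results of these data known. All members are named. Values by library are given for those that passed and the highest member of each role, and for others chosen after their values were seen. At most 4 genes of each other replication, S-phase or mitosis list are named by rule, those of smallest p. Orc3, Orc4, Orc5, Pold4 and the named markers fall outside that rule and were picked with their values in view. The floor of 3 counts covers counting error only, since no molecular identifiers are stated.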

Additional observations from a re-analysis of the deposited data

How the results depend on the processing

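Of 619 values of the 31 tested members under 20 alternatives, 535 had the same sign and the same side of the threshold, 36 lost significance, 13 gained it and 35 changed sign. Of 240 values of the 12 other genes named by the rule of smallest p, 214 had both the same and 26 lost significance. Further named genes are not among these 12: Orc5 passed in 16 of 20 alternatives and Pold4 in 8.

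The number of members called higher was 3 with DESeq2's test and 2 at an adjusted p below 0.01, and lay between 2 and 7 with 1 library left out. The number called lower was 1 with DESeq2 size factors, without mitochondrial genes and CT010467.1, and with the GC offset, 2 with the replicate block and GC offset, and lay between 0 and 3 with 1 library left out. The median of the members became -0.04 with the exonic length offset and ran from 0.06 to 0.14 without single libraries. Other replication genes called numbered 5 with DESeq2's test, 7 with the GC or the length offset and 4 at 0.01, and 5 to 14 without single libraries. Mitosis genes called numbered 1 with DESeq2's test, 2 with the length offset, 1 at 0.01, and 1 to 4 without single libraries. For S-phase supply genes the range without single libraries was 5 to 10.

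Sign changes were confined, among these alternatives, to 6 members near 0 that did not pass in any of them. Gmnn became -0.04 with limma-voom, -0.0062 without mitochondrial genes and CT010467.1 and -0.16 with the length offset. Mcm3 became -0.02 with DESeq2 size factors and with DESeq2's test, -0.0063 without a filter, -0.0024 at equal depth, -0.03 without mitochondrial genes and CT010467.1, -0.09 with the GC offset, -0.1 with block and GC offset and -0.05 with the length offset. Mcm7 became 0.04 with library totals. Rfc1 became -0.0061 without mitochondrial genes and CT010467.1. Rfc4 became -0.1 at equal depth and with the length offset. Rpa2 became -0.0062 with DESeq2 size factors, -0.0056 with DESeq2's test, -0.0038 at equal depth, -0.02 without mitochondrial genes and CT010467.1, -0.06 with the GC offset, -0.05 with block and GC offset and -0.1 with the length offset. Without single libraries the ranges were -0.24 to 0.3 for Gmnn, -0.15 to 0.11 for Mcm3, -0.18 to 0.14 for Mcm7, -0.09 to 0.11 for Rfc1, -0.23 to 0.75 for Rfc4 and -0.23 to 0.17 for Rpa2.

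With the replicate number as a block, 5 members were called higher and 0 lower, since Mcm5 no longer passed (edgeR adjusted p = 0.0505), and 3112 genes passed in all. The block changed no other call among the members. Equal numbers share only a number in the labels: deviations of equally numbered libraries correlated at 0.0975, 0.0181 and 0.0695. Those of unequally numbered libraries correlated at -0.111 to 0.0424. The share of all calls that were higher was 56.6% with TMM scaling, against 49.9% under DESeq2 size factors and 63.8% under library totals. Calls over all genes numbered 3118, and 1578 at an adjusted p below 0.01 and between 1748 and 3532 with 1 library left out.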

Other observations

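Ratios of counts between members of the same complex do not depend on how libraries are scaled. The pairs below were chosen after their values were seen, so the ratios are given without a test. The count of Pold1 relative to Pold3, both subunits of polymerase delta, was 0.321, 0.287 and 0.33 in control and 0.884, 0.701 and 0.444 in OE-labelled libraries. The count of Mcm5 relative to Mcm4, both subunits of the helicase ring, was 0.196, 0.319 and 0.21 against 0.795, 0.511 and 0.5. In both pairs all OE-labelled libraries lay above all controls. This had to follow, since the CPM ranges of both genes in each pair did not overlap between groups, in opposite directions. The count of Rpa1 relative to Rpa2 was 0.784, 0.811 and 1.57 in control and 1.6, 1.94 and 1.77 in OE-labelled libraries, so that control replicate 3 nearly reached the OE-labelled libraries. Between complexes, Pole relative to Pola2 was 0.587, 0.243 and 0.234 in control and 1.37, 1.52 and 1.21 in OE-labelled libraries. Pole and Pola2 also had non-overlapping ranges in opposite directions, so this separation was fixed as well.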
